A study of Mus musculus with 10 samples.

Results

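CXXC-domain proteins carry a zinc finger that binds DNA at CpG dinucleotides, in most cases only where the cytosine is unmethylated. CXXC1, whose gene the knockout targets, is one of them, and 6 others are described here, namely Cxxc4, Cxxc5, Kdm2a, Kdm2b, Fbxl19 and Mbd1. These 6 genes were chosen by name out of 47729 genes in the deposited count table, with earlier results of these data known. All 6 had enough counts to be tested. RNA of forelimb buds was sequenced from 5 control and 5 knockout mouse embryos at E11.5-E12. The knockout embryos were labelled Prx1Cre_+-Cxxc1fl_fl, that is, with floxed Cxxc1 on both alleles and with Prx1Cre. Its recombinase is known to act in the early limb mesenchyme and to spare other cells of the bud, which was not checked here. Control 1 was labelled Prx1Cre_+-Cxxc1fl_wt, controls 2 and 4 CreWT-Cxxc1fl_WT, control 3 CreWT-Cxxc1fl_fl and control 5 Prx1Cre?-Cxxc1fl_fl, in which the question mark is the label's own. All 10 embryos therefore carried at least 1 floxed allele. Each group had 2 embryos of litter A and 1 embryo from each of the litters B to D. Controls 1 to 5 were at 51, 51, 50, 49 and 50 somites and knockouts 1 to 5 at 51, 49, 50, 51 and 49, so that stage differed within litters A, C and D.

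The CXXC finger is held together by cysteines that bind zinc, and it reads CpG without needing the cytosine to be methylated. CpG islands, which surround the start sites of many genes, are the known places of action of this family. Cxxc4 and Cxxc5 encode small proteins that also bind Dishevelled, a transducer of WNT signals, and are known as inhibitors of that pathway. Kdm2a and Kdm2b encode demethylases of histone H3 that also carry an F-box, the part that docks a protein to a ubiquitin ligase, and KDM2B brings a variant Polycomb complex to CpG islands. Fbxl19 encodes a relative of both without the demethylase part. Mbd1 encodes a protein with a methyl-CpG-binding domain beside several CXXC fingers.

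The coding stretch from the first to the last cysteine of the finger is shown for 4 members, because it is the feature that places them in 1 family. It was read from GENCODE M21 transcripts (GRCm38) with 8 cysteine codons, whose spacing could vary within set limits, and capitals mark those codons.
Cxxc4: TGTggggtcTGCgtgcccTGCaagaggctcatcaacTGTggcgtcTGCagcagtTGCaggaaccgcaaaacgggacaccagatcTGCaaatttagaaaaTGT
Kdm2a: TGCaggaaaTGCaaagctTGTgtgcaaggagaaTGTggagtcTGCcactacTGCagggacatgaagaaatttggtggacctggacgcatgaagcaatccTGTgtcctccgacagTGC
Kdm2b: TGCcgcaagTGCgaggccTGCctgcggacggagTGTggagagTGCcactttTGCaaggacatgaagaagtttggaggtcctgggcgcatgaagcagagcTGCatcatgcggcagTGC
Fbxl19: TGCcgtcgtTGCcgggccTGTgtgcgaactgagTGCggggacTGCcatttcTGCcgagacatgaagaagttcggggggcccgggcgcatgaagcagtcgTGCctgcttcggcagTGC

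These stretches lie at chr3:134240578-134240679 (Cxxc4, plus strand), chr19:4328959-4329075 (Kdm2a, minus strand), chr5:122888536-122888652 (Kdm2b, minus strand) and chr7:127748328-127748444 (Fbxl19, plus strand). The stretch has 117 bases in Kdm2a, Kdm2b and Fbxl19, and 102 bases in Cxxc4. Between Kdm2b and Fbxl19 75.2% of the bases were identical, between Kdm2a and Kdm2b 73.5%, and between Kdm2a and Fbxl19 70.9%. Cxxc5 has a stretch of the same length as Cxxc4, with 76.5% identical bases. Mbd1 encodes 3 different such fingers. The whole stretch was found in 2 of 2 annotated coding transcripts of Cxxc4, 1 of 6 of Cxxc5, 3 of 6 of Kdm2a, 5 of 8 of Kdm2b and 6 of 7 of Fbxl19. Transcripts with an incomplete annotated coding sequence were not set aside. A transcript without the stretch therefore need not be a form without the finger. The table gives 1 count per gene, so any forms with and without the finger could not be told apart.

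The members lie on 5 chromosomes (GRCm38). Cxxc4 (ENSMUSG00000044365) spans bases 134236484 to 134262161 of chromosome 3, Kdm2b (ENSMUSG00000029475) 122870665 to 122989823 of chromosome 5, Fbxl19 (ENSMUSG00000030811) 127744543 to 127769483 of chromosome 7 and Kdm2a (ENSMUSG00000054611) 4314419 to 4398285 of chromosome 19. Cxxc5 (ENSMUSG00000046668) at 35829397 to 35861688 and Mbd1 (ENSMUSG00000024561) at 74267605 to 74282732 are both on chromosome 18, as is the targeted gene Cxxc1. Mbd1 starts 46109 bases beyond the end of Cxxc1, and 38354436 bases lie between Cxxc5 and Cxxc1. Of the exon bases of Kdm2b, 5.77% are also exon of Rnf34, which runs the other way, and counts without strand could not separate them there. In the other 5 members no overlapping gene shared more than 1.81% of exon bases.

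RefSeq start sites with a window of 250 bases before to 50 after (GRCm38.p6) were listed for 3 of the 6 members, and the CG dinucleotide, the letters the family binds, was counted in each window. The window of Cxxc4 held 26 CG, and 16.9% of 32851 such windows held as many. Kdm2b had 4 windows with 18, 28, 47 and 49 CG. All 4 lie within the span of the gene. For the pair with the most, no more than 1.44% of windows held as many. The 2 windows of Fbxl19 held 14 and 16 CG. The median window held 7, and 94.6% of windows held at least 1.

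Total counts ran from 33274855 to 49881126 per library, and a single library held from 935 counts (Cxxc4) to 10302 counts (Kdm2a) of a member. Levels are in CPM, counts relative to a library total scaled by TMM, edgeR's method for making libraries comparable. Tests are edgeR's quasi-likelihood test, with p adjusted over all genes tested. Cxxc1 averaged 96.7 ± 6.88 CPM over controls, against 75.2 ± 1.23 CPM over knockouts (SD, n = 5 each), and all 5 knockouts lay below all 5 controls. It fell by 0.36 on the log2 scale (SE 0.05, edgeR adjusted p = 0.000144). The counts cover the whole gene and not only the floxed part, which the labels do not locate. The source of the Cxxc1 RNA left in knockouts was not tested. Control 5, whose Cre status is marked with a question mark, held 89.5 CPM, the lowest of the controls. The forelimb gene Tbx5 averaged 187.6 CPM in the control group, with 88.1 CPM for the knockouts, while the hindlimb genes Tbx4 and Pitx1 summed to between 10.7 and 15.3 CPM in all libraries. Xist, the RNA that coats the silenced X, reached 4114.5 CPM (control 1) and 2289.5 CPM (knockout 3), and at most 5.48 CPM elsewhere.

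In the knockout, Cxxc4 and Cxxc5 rose, Fbxl19 fell, and Kdm2a, Kdm2b and Mbd1 did not pass the test. Thus 2 of 6 rose and 1 of 6 fell, where 18.1% of the 20562 genes tested were called higher, 17.1% lower and 35.2% in either direction (edgeR adjusted p below 0.05). The members that passed changed by 0.34 at most on the log2 scale, which is below the median absolute change of all called genes (0.46). The median absolute change of all genes tested, called or not, was 0.23. The median log2 fold change of the 6 was 0.10, against -0.001 for all genes tested. Groups did not overlap in 2 of the 6 members, Cxxc5 and Fbxl19, and in 25.3% of all genes tested. In bulk RNA, fewer cells of a type and less RNA per cell cannot be told apart.

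**Figure D1:**
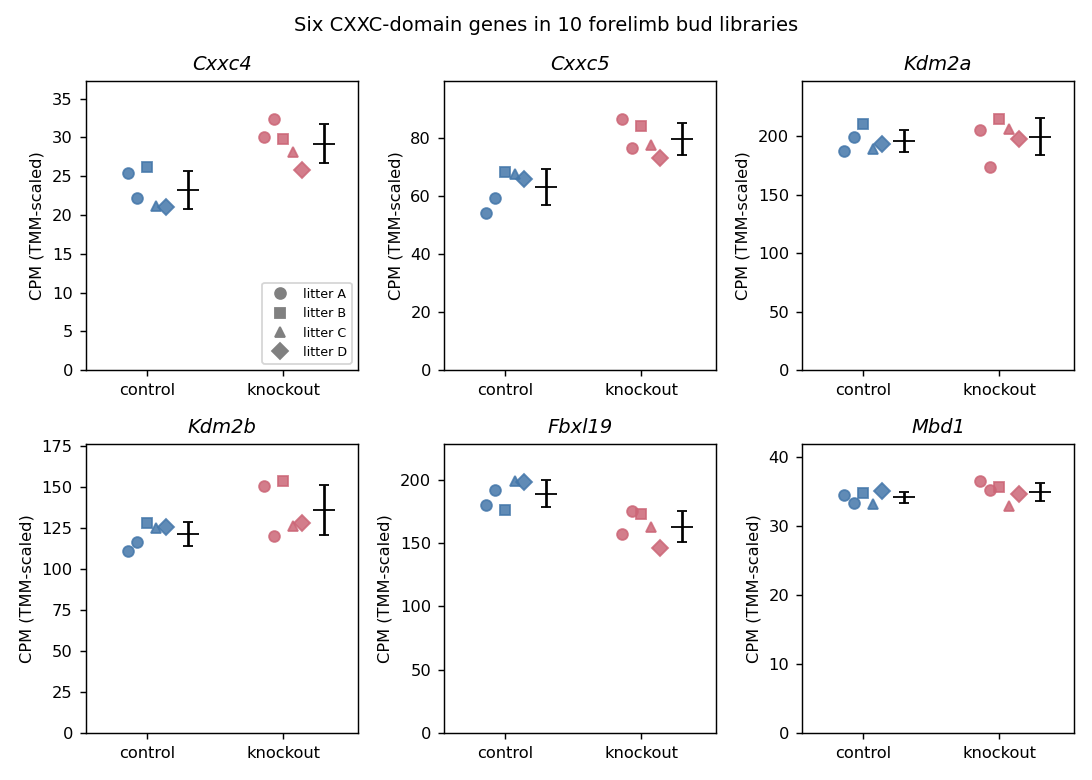
CPM of the 6 members in each of 10 libraries (points, shaped by litter), with the mean and SD of 5 libraries beside each group; every axis starts at 0. Cxxc5 knockouts (73.1 to 86.6 CPM) lie above all controls, Fbxl19 knockouts (145.9 to 175.5 CPM) lie just below all controls, and the groups of Mbd1 lie on each other.

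Cxxc5, whose protein is known as a feedback inhibitor of WNT signalling, was higher in every knockout. Controls 1 to 5 held 54.0, 59.3, 68.4, 67.5 and 65.7 CPM, and knockouts 1 to 5 held 86.6, 76.5, 84.2, 77.7 and 73.1 CPM. The lowest knockout lay 4.68 CPM above the highest control. The means were 63.0 ± 6.15 and 79.6 ± 5.61 CPM (SD, n = 5 each). The log2 fold change was 0.34 (SE 0.07, 95% interval 0.18 to 0.49, a 1.26-fold rise; edgeR adjusted p = 0.00312). An exact two-sided permutation test of the CPM gave p = 0.00794, the smallest that 5 against 5 can give when litter is ignored. For every member this test exchanged libraries freely across litters, so it did not use the pairing by litter. Cxxc5 was higher in the knockouts of all 4 litters, by 0.52 on the log2 scale in litter A, 0.30 in B, 0.20 in C and 0.15 in D. Without litter A, which leaves 3 against 3, the fold change was 0.22 with an edgeR adjusted p of 0.0577. The 2 controls of litter A were the lowest of the 5.

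Cxxc4, which encodes the closest relative of CXXC5 in the family, rose by a like amount from a lower level. Its controls held 25.4, 22.2, 26.2, 21.2 and 21.0 CPM, and its knockouts 30.0, 32.4, 29.8, 28.1 and 25.8 CPM. Knockout 5 lay 0.474 CPM below control 3, so that the groups overlapped by 1 library each. The means were 23.2 ± 2.44 and 29.2 ± 2.48 CPM (SD, n = 5 each), which on the log2 scale is a change of 0.33 (SE 0.08, 95% interval 0.15 to 0.51; edgeR adjusted p = 0.0077). The exact permutation test (two-sided) gave p = 0.0159. Within litters the difference was 0.39 in A, 0.18 in B, 0.41 in C and 0.29 in D. Without litter A the fold change was 0.29 and the edgeR adjusted p 0.109.

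Fbxl19, whose product joins an F-box to a CXXC finger, was the member that fell. Controls held 179.8, 192.4, 176.0, 198.8 and 198.2 CPM, and knockouts 156.9, 175.5, 173.4, 162.5 and 145.9 CPM. The groups did not overlap, but only 0.478 CPM lay between control 3 and knockout 2. The means were 189.0 ± 10.6 and 162.9 ± 12.2 CPM (SD, n = 5 each), which on the log2 scale is a change of -0.22 (SE 0.06, 95% interval -0.34 to -0.09; edgeR adjusted p = 0.0121). By exact permutation (two-sided) p was 0.00794. Litters differed in size: the change was -0.02 in litter B, -0.16 in A, -0.29 in C and -0.44 in D. The call was lost without litter A (-0.25, adjusted p = 0.0628) and without litter D (-0.16, adjusted p = 0.0535, edgeR).

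**Figure D2:**
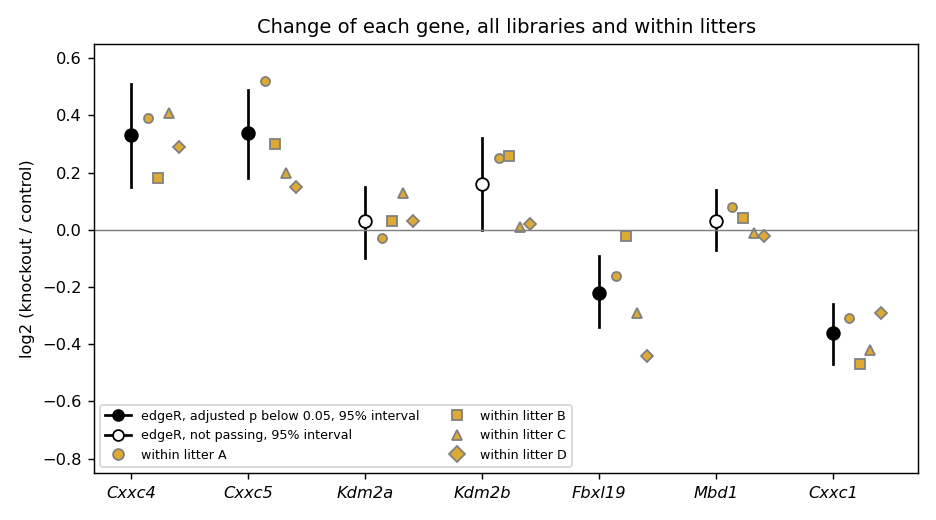
Log2 fold change, knockout over control, for the 6 members and the targeted gene Cxxc1: black points with 95% intervals are from the edgeR test over all 10 libraries (filled where the adjusted p is below 0.05), and yellow symbols, 1 shape per litter, are differences of log2 CPM within litters A to D. The 4 litter values lie above 0 for Cxxc4 and Cxxc5 and below 0 for Fbxl19 and Cxxc1, with Fbxl19 in litter B at -0.02.

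Kdm2b, the Polycomb-linked demethylase, was not called. Controls held 110.6, 116.1, 128.0, 125.1 and 125.7 CPM. Knockouts 1 and 3 held 150.6 and 153.2 CPM, while knockouts 2, 4 and 5 held 120.1, 126.2 and 127.9 CPM, inside the range of the controls. The means were 121.1 ± 7.42 and 135.6 ± 15.2 CPM (SD, n = 5 each), and the log2 fold change was 0.16 (SE 0.07, 95% interval 0.00 to 0.32; edgeR adjusted p = 0.106). The unadjusted edgeR p was 0.0457, and exact permutation (two-sided) gave p = 0.103. Within litters the difference was 0.25 in A and 0.26 in B, and 0.01 in C and 0.02 in D. Kdm2b passed when libraries were scaled by their totals only (0.21, edgeR adjusted p = 0.0327). Without control 1 and knockout 3, the libraries with high Xist, the fold change was 0.08 (adjusted p = 0.423, edgeR). It was 0.10 (adjusted p = 0.427) without litter A.

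Kdm2a, the paralog of Kdm2b, averaged 196.0 ± 9.31 CPM over controls, against 199.7 ± 15.9 CPM over knockouts (SD, n = 5 each). Controls held 187.5, 199.7, 210.4, 189.3 and 193.1 CPM, and knockouts 205.7, 173.5, 215.0, 206.6 and 197.8 CPM. Knockout 2 was the lowest and knockout 3 the highest of all 10, so the knockouts enclosed the controls. The log2 fold change was 0.03 (SE 0.06), and its 95% interval ran from -0.10 to 0.15 (edgeR adjusted p = 0.765). The interval corresponds to between 0.93-fold and 1.11-fold of the control level. Only 6.91% of genes tested had a smaller absolute fold change.

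Mbd1, the methyl-CpG-binding member, which starts 46109 bases beyond the targeted gene, varied least. Controls held 34.5, 33.3, 34.7, 33.1 and 35.0 CPM, and knockouts 36.4, 35.2, 35.6, 32.9 and 34.6 CPM. The highest and the lowest of the 10 libraries were both knockouts. The means were 34.1 ± 0.844 and 34.9 ± 1.33 CPM (SD, n = 5 each), a coefficient of variation of 2.47% in controls and 3.81% in knockouts. The log2 fold change was 0.03 (SE 0.05, 95% interval -0.07 to 0.14; edgeR adjusted p = 0.622). Changes of more than 1.1-fold up or below 0.95-fold lie outside this interval.

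Levels of different genes were compared per length, as CPM per kb of annotated exon. In controls Fbxl19 stood highest at 41.6 ± 2.33 CPM per kb (SD, n = 5), above 93.3% of the genes tested over all 10 libraries. Cxxc5 followed at 20.9 ± 2.05, then Kdm2a at 13.6 ± 0.644, Kdm2b at 11.1 ± 0.682, Mbd1 at 5.09 ± 0.126 and Cxxc4 at 1.73 ± 0.182 CPM per kb. Cxxc4 stood above 43.5% of the genes tested. The control libraries of neighbours in this order did not overlap. In knockouts the order was the same, at 35.9 ± 2.68, 26.5 ± 1.86, 13.8 ± 1.1, 12.5 ± 1.40, 5.21 ± 0.199 and 2.18 ± 0.185 CPM per kb (SD, n = 5 each). Kdm2a and Kdm2b then overlapped, with Kdm2a between 12.0 and 14.9 and Kdm2b between 11.1 and 14.1 CPM per kb. This pair changed places in controls when the longest transcript was taken as length (22.8 for Kdm2a and 23.4 for Kdm2b). Cxxc1 on the same scale was at 24.6 ± 1.75 in controls and 19.2 ± 0.313 CPM per kb in knockouts (SD, n = 5 each), so that it lay above Cxxc5 in the mean of controls and below it in knockouts.

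**Figure D3:**
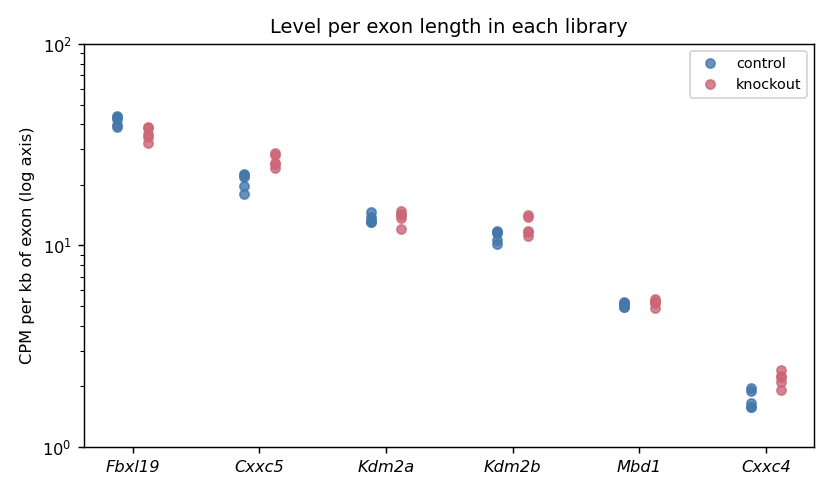
CPM per kb of annotated exon for each member in 5 control and 5 knockout libraries, on a log axis, in the order of the control means. Fbxl19 is the highest (41.6 CPM per kb in controls) and Cxxc4 the lowest (1.73), and Kdm2a and Kdm2b overlap in knockouts.

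The genes nearest to each member in pattern were found by the root mean square difference of log2 CPM over the 10 libraries, each gene centred on its own mean, among 13418 genes. Itprid2 (0.063) and Tm7sf3 (0.079) were nearest to Cxxc4, and Rexo1 (0.041) and Fem1a (0.049) to Cxxc5. Among the 2 nearest to Kdm2a was Fam210a (0.054), and Kdm2b was nearest to Nup188 (0.058) and Gemin5 (0.060). Fbxl19 was nearest to the ribosomal protein gene Rpl13 (0.043) and the F-box gene Fbxo9 (0.051), and Raver2 (0.033) was among the 2 nearest to Mbd1. No member was among the 2 nearest genes of another.

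The other genes of the family with a CXXC finger were read from the same test. Of 5 (Dnmt1, Kmt2a, Kmt2b, Tet1 and Tet3), 1 rose, 0 fell and 4 did not pass, with a median log2 fold change of -0.04. Among all genes tested, 18.1% were called higher and 17.1% lower. Kmt2b, a methyltransferase of histone H3, rose from 114.9 ± 9.30 to 132.3 ± 5.40 CPM (0.20, SE 0.06), with overlapping groups. Its call was lost without litter A (0.22), without litter D (0.15), with controls labelled CreWT only (0.15) and without control 1 and knockout 3 (0.18). Dnmt1, which copies DNA methylation at replication, was at 423.2 ± 41.5 and 452.9 ± 23.9 CPM (0.10), and Kmt2a at 149.3 ± 12.5 and 144.9 ± 7.56 CPM (-0.04). The methylcytosine oxidases Tet1 (-0.17) and Tet3 (-0.12) did not pass.

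Partners of KDM2B and of the F-box were next. Of 9 genes of the variant Polycomb complex that KDM2B recruits, 1 fell, 0 rose and 8 did not pass (median -0.06). The shares over all genes tested were 17.1% lower and 18.1% higher. Pcgf1, the subunit that gives this complex its identity, fell from 12.9 ± 0.474 to 10.9 ± 0.744 CPM (SD, n = 5 each; -0.25, SE 0.07), without overlap of the groups. Its call was lost without litter A (-0.26) or B (-0.21), with controls labelled CreWT only (-0.24), without control 1 and knockout 3 (-0.21) and with scaling by totals only (-0.19). Of the 3 core genes of the ubiquitin ligase that F-box proteins join, Cul1 fell by 0.10 on the log2 scale (SE 0.03), a call lost in 17 of 25 alternatives, and Skp1 (-0.06) and Rbx1 (-0.03) did not pass.

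Genes of enzymes that add or remove methyl groups at the histone position that KDM2A and KDM2B demethylate were measured as well. Of 8, 4 fell, 0 rose and 4 did not pass (median -0.15), where 17.1% of all genes tested were called lower and 18.1% higher. Setd2 fell from 201.6 ± 12.2 to 171.5 ± 11.4 CPM (-0.23, SE 0.06), Nsd3 from 112.8 ± 4.16 to 98.1 ± 5.55 CPM (-0.20, SE 0.05) and Ash1l from 129.9 ± 8.21 to 115.0 ± 4.95 CPM (-0.18, SE 0.05). All 3 encode methyltransferases. Nsd1 fell by 0.12 (SE 0.04), a call lost in 17 of 25 alternatives. All 4 lost their call without litter A (-0.24, -0.16, -0.18 and -0.08), and Ash1l also without litter B (-0.15) and with scaling by totals only (-0.12).

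The kinase module of Mediator, which FBXL19 is known to bind, held the largest fall among these partners. Of 7 genes, 3 fell, 0 rose and 4 did not pass (median -0.17), beside 17.1% lower and 18.1% higher among all genes tested. Cdk19, one of its kinases, fell from 71.8 ± 5.70 to 46.2 ± 1.24 CPM (SD, n = 5 each; -0.64, SE 0.06, edgeR adjusted p = 5.33e-06), with no overlap. Med12l fell by 0.39 (SE 0.09) and Med13l by 0.27 (SE 0.07), and both calls were lost without litter A (-0.33 and -0.22). The other kinase gene, Cdk8, named after its value was seen, did not pass, with 86.9 ± 2.90 against 89.9 ± 5.00 CPM.

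Among the genes of 6 other methyl-CpG-binding proteins 1 rose, 0 fell and 5 did not pass (median -0.08). Over all genes tested, 18.1% were called higher and 17.1% lower. Mbd2, a repressor of methylated promoters, rose from 45.9 ± 2.21 to 51.8 ± 2.16 CPM (0.17, SE 0.05), a call lost without litter A (0.10) and with controls labelled CreWT only (0.15). The MBD1 partners Atf7ip (-0.12), Chaf1a (0.02) and Setdb1 (0.01) did not pass. Atf7ip passed without control 1 (-0.15) and without control 1 and knockout 3 (-0.18).

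RNA for the WNT proteins that CXXC4 and CXXC5 are known to act on was measured too. Dvl1 fell from 41.4 ± 1.62 to 35.0 ± 1.20 CPM (-0.24, SE 0.05) and Dvl2 from 80.5 ± 4.59 to 67.9 ± 3.70 CPM (-0.25, SE 0.05), both without overlap, and Dvl3, with 68.4 ± 6.43 against 71.1 ± 4.66 CPM (0.06), did not pass. Of 7 feedback and target genes of the pathway, 3 rose, 1 fell and 3 did not pass (median 0.24), against 18.1% higher and 17.1% lower over all genes tested. Sp5, a transcription factor, rose from 0.977 ± 0.183 to 5.10 ± 0.837 CPM (2.38, SE 0.17), Tcf7 by 0.54 (SE 0.10) and Notum, an enzyme that inactivates WNT ligands, by 0.59 (SE 0.13). Nkd2, an inhibitor that binds Dishevelled, fell from 131.3 ± 9.29 to 102.4 ± 4.44 CPM (-0.36, SE 0.05). The Notum call was lost without litter A (0.50). The target Axin2 was at 106.2 ± 13.0 and 99.8 ± 7.66 CPM, and it was named after its value was seen.

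Over all 50 partner genes, each counted once, 5 rose (10%) and 12 fell (24%), where 18.1% and 17.1% of all genes tested were called higher and lower. Their median log2 fold change was -0.08, against -0.001 for all genes tested. Without litter A, 2 rose and 5 fell. Calls over all genes then dropped as well, from 3719 to 2002 higher and from 3526 to 2021 lower. With libraries scaled by their totals only, 7 partner genes rose and 8 fell. Over all genes that scaling gave 4492 called higher and 2734 lower.

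**Figure D4:**
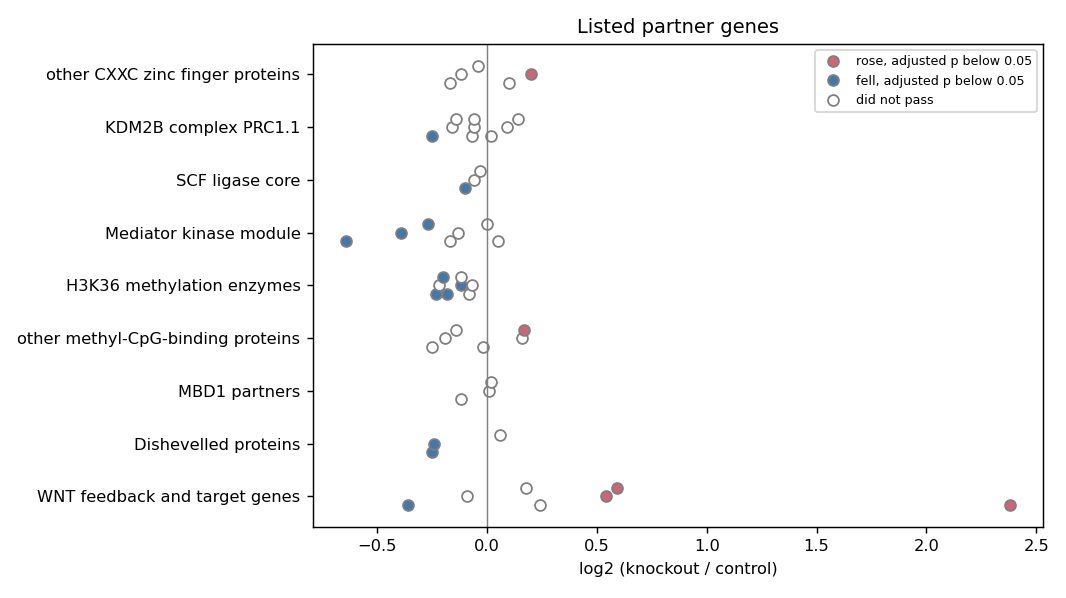
Log2 fold change, knockout over control, of each listed partner gene (points, coloured where the edgeR adjusted p is below 0.05), by list. Points lie within 0.64 of 0 except Sp5 at 2.38, and the called genes of the histone methylation, Mediator and Dishevelled lists lie below 0.

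Marker genes of the bud's cell types differed between the same libraries. The counts below stand beside 18.1% of all genes tested called higher and 17.1% called lower. Limb mesenchyme markers summed to between 1806.7 and 1883.9 CPM in controls and between 1000.7 and 1096.2 CPM in knockouts, and 5 of 8 passed the test as lower and 0 as higher. Msx1 (149.4 and 179.8 CPM) and Meis1 (21.6 and 27.4 CPM) had higher means in knockouts and did not pass. Of 7 cartilage markers, 6 fell, with sums from 543.5 to 996.8 and from 173.9 to 210.4 CPM. Macrophage markers rose in 8 of 8, with sums from 48.4 to 60.3 and from 185.9 to 220.0 CPM. Ectoderm markers rose in 7 of 8 (312.0 to 517.3 and 578.2 to 693.8 CPM), endothelial markers in 6 of 7 (230.4 to 270.7 and 288.8 to 337.0 CPM) and erythroid markers in 6 of 6 (1600.6 to 1791.6 and 1755.0 to 3715.7 CPM). Markers of muscle precursors rose in 4 of 5 (78.1 to 99.4 and 87.3 to 162.4 CPM), and those of Schwann precursors summed to 48.1 to 55.3 and 48.4 to 54.4 CPM, and 1 of 4 fell. No listed marker was at 0 in every library. The part of these cell type differences in the changes of Cxxc4, Cxxc5 and Fbxl19 was not tested.

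The 3 calls were followed through 25 alternative analyses, which changed the scaling, the test, the filter, the covariates or the libraries used. Cxxc4 stayed between 0.29 and 0.39 and passed in 24 of 25. Cxxc5 stayed between 0.22 and 0.39 and passed in 24 of 25. Fbxl19 stayed between -0.26 and -0.16 and passed in 23 of 25.

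**Figure D5:**
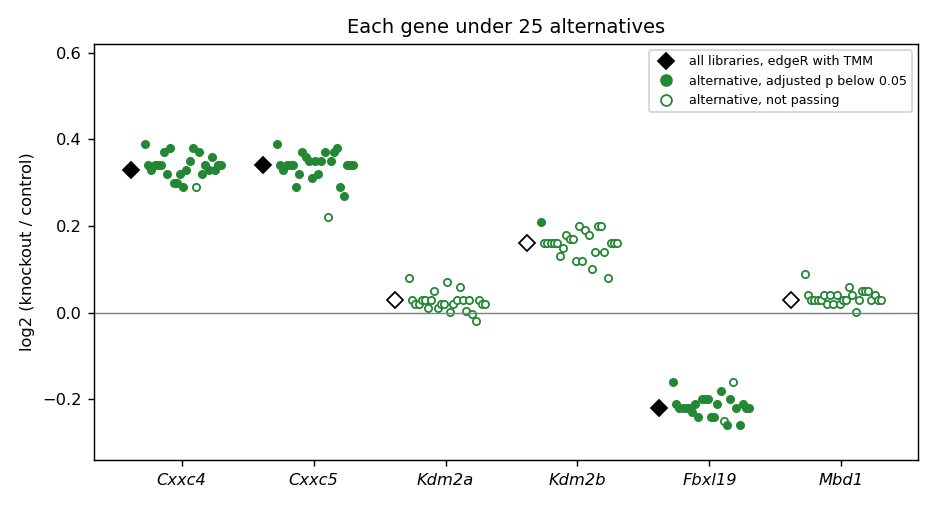
Log2 fold change, knockout over control, of each member in the test on all libraries (diamonds, filled where the adjusted p is below 0.05) and under 25 alternatives (circles, filled where the adjusted p is below 0.05). Cxxc4 and Cxxc5 lie above 0 and Fbxl19 below 0 under all 25, Kdm2b is filled once, and Kdm2a lies on both sides of 0.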

How the data were processed

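The deposited table held estimated counts per Ensembl gene, made by the authors; Salmon (0.8.2), DESeq2 (1.16.1), R (3.4.1) and mm10 are named, with no role, in the submitters' processing notes. The sources used here do not give strand handling. Counts were rounded, since 0.0592% of values above 0 were whole within 1e-06. A second deposited table, named FPKM, held a signal that equals each rounded count over a factor of its library (100% within 0.01) and served only as an alternative with limma 3.58.1 (log2, pseudocount 0.5 or 1). Symbols, lengths and coordinates came from GENCODE M21 (GRCm38, the assembly of mm10), which named 47224 of 47729 genes.

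Genes passing filterByExpr (minimum count 10, minimum total 15) entered edgeR 4.0.16 (R 4.3.3) with TMM scaling. The quasi-likelihood test compared knockout with control without covariate, with Benjamini-Hochberg adjustment over 20562 genes and a threshold of 0.05. The SE is the absolute log2 fold change over the square root of F, and the 95% interval uses the test's degrees of freedom. The test was checked on simulated data. DESeq2 1.42.0 was an alternative. Log2 CPM used a prior count of 2.

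Litters pair the libraries, per the labels. Same-numbered libraries share a litter, but litter A holds numbers 1 and 2, and within it the labels pair no single embryos. The correlation of same-numbered libraries' deviations from group means was -0.01, 0.16, -0.02, 0.04 and 0.20 for numbers 1 to 5. The embryos come from 4 litters. Members and gene lists were chosen with earlier results of these data known. Named genes were the members and Cxxc1, up to 4 called genes per list with the smallest adjusted p (all genes of lists of 5 or fewer) and the 2 nearest genes of each member with a mean of at least 1 CPM; 1 gene near Kdm2a and 1 near Mbd1 are not reported here. Alternatives changed scaling, filter, test, covariates and libraries. Protein sequences were not used here.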

Additional observations from a re-analysis of the deposited data

How the results depend on the processing

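Leaving out litter A, with 2 of 5 embryos of each group, moved the most results: 4023 genes were then called (2002 higher, 2021 lower), with 2 partner genes higher and 5 lower. Cxxc4 (0.29), Cxxc5 (0.22) and Fbxl19 (-0.25) kept their direction without a call, from 3 libraries against 3. Fbxl19 also lost its call without litter D (-0.16). Kdm2b gained one with scaling by library totals (0.21), which made 62.2% of calls higher, against 51.3% with TMM. Kdm2a was slightly below 0 with controls labelled CreWT only (-0.0024) and without control 1 and knockout 3 (-0.02). With the longest transcript as length, control levels per kb were 3.67 for Cxxc4, 27.4 for Cxxc5, 22.8 for Kdm2a, 23.4 for Kdm2b, 51.9 for Fbxl19 and 8.71 for Mbd1, because that length is shorter. Genes near 0 that never passed changed sign: with scaling by totals Kmt2a (0.0074) and Rbx1 (0.02); without litter A Skp1 (0.0018), Setdb1 (-0.0093), Chaf1a (-0.03) and Dvl3 (-0.07). Without litter B the same held for Kmt2a (0.02) and Chaf1a (-0.00064), and without litter C for Setdb1 (-0.00088). Without control 1 and knockout 3 it held for Chaf1a (-0.04). With 1 library left out, Kmt2a ran from -0.07 to 0.0086, Setdb1 from -0.0046 to 0.03 and Chaf1a from -0.02 to 0.05. Apart from the lengths, the cause of these shifts was not tested. With the replicate number as a block, 6850 genes were called, and 7314 with litter as a block; no member's call changed (Cxxc4 0.34, Cxxc5 0.34 and Fbxl19 -0.22 in both), while Cul1 (-0.10) and Nsd1 (-0.12) lost theirs under the block of number and Fbxo9 (-0.20) under both blocks. Fbxo9 was close to the threshold over all libraries (edgeR adjusted p = 0.0494), and its call was lost in 20 of 25 alternatives. Cxxc4 and Mbd1 had the fewest counts of the members, from 935 and 1181 per library.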
